A study of Mus musculus with 5 samples.

Results

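Six-family and Eya genes encode partners of a developmental transcription network, and 9 of them were followed here: Eya1, Eya2, Eya3, Eya4, Six2, Six3, Six4, Six5 and Six6. They were taken by name from the 21728 protein-coding genes of GENCODE M21 on the autosomes and the X chromosome (build mm10). The rule used no measured value, but the members were chosen with earlier results of these data known. For each gene, the length covered by H3K27me3 broad peaks was measured within 3 kb on either side of the transcription start site (TSS), called the promoter, and within 25 kb on either side.

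The lists came from ChIP-seq of cultured dermal fibroblasts of late-gestation mouse embryos on a C57BL/6 background. The Kdm6b-cKO libraries, replicates 3 and 4, came from embryos with Dermo1-Cre and Kdm6b fl/fl, in which Cre is driven by the Dermo1 (Twist2) locus in dermal fibroblasts, and the WT libraries, replicates 7 and 9, came from control embryos. Cells of every sample were labelled as sorted for GFP, WT included, and were expanded in AmnioMAX medium before fixation. Whether the replicates were separate embryos is not stated in the labels, so p-values measure only the spread between these libraries. The mutant loses Kdm6b, a demethylase of H3K27me3, and the comparison asked where the mark extends without it.

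Six-family proteins are homeodomain transcription factors. Eya proteins bind no DNA of their own but are brought to it by Six-family proteins, where they act as coactivators, and they also carry phosphatase activity. Together with Pax factors and the Dach cofactors they build eyes, ears, kidneys and skeletal muscle. In cells of other lineages such developmental regulators are typically kept silent by Polycomb repressive complex 2, which places H3K27me3 over their CpG-rich promoters and can spread it into wide domains.

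The members fell into marked and unmarked genes, and both classes held CpG-rich promoters. The 200 bases directly upstream of the TSS are shown for a pair of marked genes, Eya2 and Six2, and for both unmarked genes, Eya3 and Six5, with each CG dinucleotide in capitals. The sequences are from mm10, read 5′ to 3′ on the strand of the gene, and lie at chr2:165594832-165595031 for Eya2, chr17:85688275-85688474 for Six2, chr4:132638787-132638986 for Eya3 and chr7:19094394-19094593 for Six5.
Eya2: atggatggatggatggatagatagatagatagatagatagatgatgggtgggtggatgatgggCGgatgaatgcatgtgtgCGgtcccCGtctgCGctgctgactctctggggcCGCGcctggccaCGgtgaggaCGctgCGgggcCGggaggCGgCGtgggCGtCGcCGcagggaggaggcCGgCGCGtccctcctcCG
Six2: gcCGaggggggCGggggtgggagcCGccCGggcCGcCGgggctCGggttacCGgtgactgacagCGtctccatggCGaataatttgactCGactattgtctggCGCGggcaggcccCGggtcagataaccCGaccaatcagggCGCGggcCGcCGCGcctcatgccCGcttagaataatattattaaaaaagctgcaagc
Eya3: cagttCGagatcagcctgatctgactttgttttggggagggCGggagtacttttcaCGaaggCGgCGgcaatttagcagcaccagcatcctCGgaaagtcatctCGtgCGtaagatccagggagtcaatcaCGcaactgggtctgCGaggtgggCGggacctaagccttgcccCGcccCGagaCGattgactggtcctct
Six5: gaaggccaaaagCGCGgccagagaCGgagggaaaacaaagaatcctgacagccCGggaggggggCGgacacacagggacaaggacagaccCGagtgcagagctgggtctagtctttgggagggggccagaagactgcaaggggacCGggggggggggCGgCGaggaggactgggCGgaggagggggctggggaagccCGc
These stretches held 19 CG dinucleotides for Eya2, 21 for Six2, 14 for Eya3 and 11 for Six5. Over the whole promoter, Six2 had 49.3 CpG per kb and Six5 had 49.2, which placed them at percentiles 98.9 and 98.9 of all promoters, yet one was covered from end to end and the other carried no peak. Eya1, by contrast, was marked with 16.2 CpG per kb and a GC content of 39.4%, below the medians over all promoters of 18 CpG per kb and 46.8%. The remaining members held between 21.2 CpG per kb, at Eya3, and 32.7, at Six4.

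All 9 genes were placed in the marked or the unmarked class identically in all 4 libraries. A promoter was called marked when at least 500 bp of its 6 kb was covered. The 7 marked genes were Eya1, Eya2, Eya4, Six2, Six3, Six4 and Six6, and each was marked in all 4 libraries. For comparison, 52.7% of the 6251 tested promoters (those marked in any library) were marked in every one. The other two, Eya3 and Six5, had no covered base in any library and entered no promoter test. Eya3 (chr4:132638987-132724765, plus strand) is the broadly expressed member of its family. Six5 (chr7:19094594-19098549, plus strand) lies beside Dmpk, the gene of the myotonic dystrophy protein kinase, whose promoter also carried no peak. Peaks were wholly absent within 25 kb of the Eya3 TSS. Around Six5 the only peaks were of 0.256 kb in Kdm6b-cKO 4 and 0.926 kb in WT 7, both on the downstream side.

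Promoters of 4 members, Eya2, Six2, Six3 and Six6, were covered over their whole 6 kb in every library. Of the tested promoters, 10.2% were fully covered in all 4. A gene that is fully covered in WT has no room to gain at this width, which is why the wider window was measured as well. The plot of broad peaks around each TSS shows both kinds of gene.

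**Figure D1:**
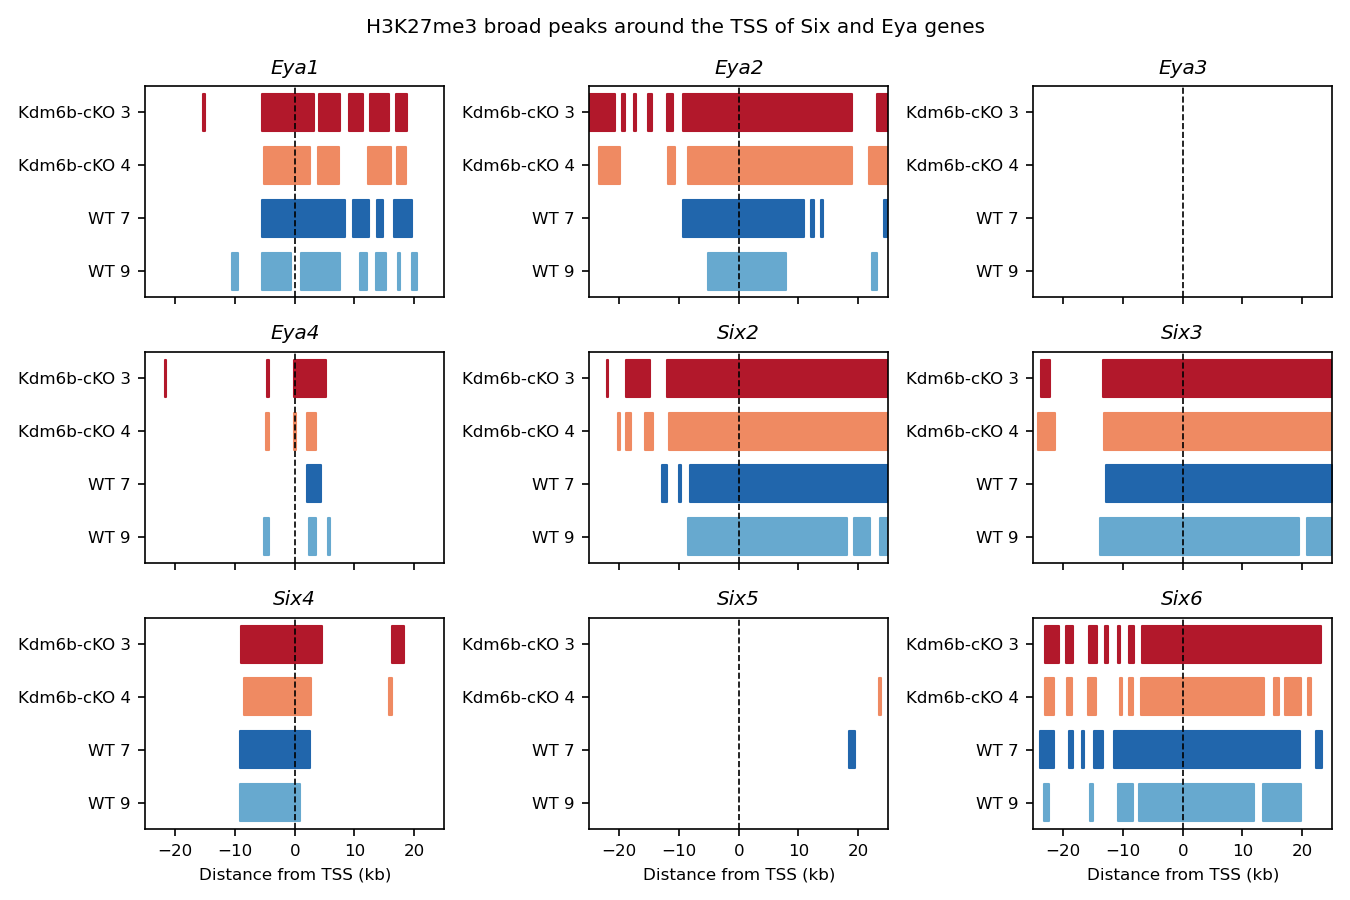
H3K27me3 broad peaks (bars) within 25 kb of the TSS of the 9 Six-family and Eya genes in the 4 libraries, with distance from the TSS in kb on the x axis and transcription running to the right. Peaks lie over the TSS of Eya2, Six2, Six3, Six4 and Six6 in all 4 libraries, Eya3 has no peak, and the Eya2 peak reaches 18.98 and 18.91 kb downstream in the Kdm6b-cKO libraries but 11.0 and 7.98 kb in the WT libraries.

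The lists differed in size before any gene was considered. On the autosomes and X, the Kdm6b-cKO lists held 44077 and 40565 peaks over 148.3 and 123.9 Mb, and the WT lists held 29841 and 22597 peaks over 91.4 and 61.5 Mb. The covered length was 1.78-fold higher in Kdm6b-cKO, with a two-sided exact permutation p of 0.333, the smallest that 2 against 2 libraries allow. The authors subsampled the libraries to a like depth. The reads behind each peak are unknown, since the lists hold no counts. Whether a larger list reflects more mark or a more sensitive library cannot be told apart. Fibroblast marker promoters were free of peaks: 0 of 10, among them Pdgfra, Col1a1 and Dcn, had a covered base in any library, although Pdgfrb and Postn had peaks within 25 kb in all 4. Of 14 markers of other lineages, 7 were marked in at least 1 library and 3 (Des, Kdr and Sox10) in all 4. Over all 21728 promoters, 6251 were marked in at least 1 library and 3292 in all 4.

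Eya2, a coactivator best known from muscle and sensory lineages, showed the widest difference between genotypes among the members. Within 25 kb of its TSS (gene at chr2:165595032-165771727, plus strand, ENSMUSG00000017897.18), H3K27me3 covered 37.0 kb in Kdm6b-cKO 3, 35.2 kb in Kdm6b-cKO 4, 22.0 kb in WT 7 and 13.9 kb in WT 9. The genotypes did not overlap, as at 65.3% of all windows tested. The means were 36.1 ± 1.27 kb and 17.9 ± 5.68 kb (SD, n = 2 each), a difference of 18.2 ± 3.19 kb (SE) with an adjusted p of 0.0609 by limma, which missed the threshold of 0.05. Of the 11829 genes tested, 292 had a larger difference. The promoter itself was 100% covered in every library, so the difference lay outside it.

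Both flanks of the Eya2 TSS were wider in Kdm6b-cKO. The downstream 25 kb, inside the gene, held 20.9, 22.1, 12.7 and 8.76 kb of peaks in Kdm6b-cKO 3, Kdm6b-cKO 4, WT 7 and WT 9, and the upstream 25 kb held 16.1, 13.2, 9.29 and 5.16 kb. The single peak over the TSS measured 28.3 kb (Kdm6b-cKO 3), 27.5 kb (Kdm6b-cKO 4), 20.3 kb (WT 7) and 13.1 kb (WT 9). Its upstream edge stood 9.36, 8.57, 9.29 and 5.16 kb from the TSS, so WT 7 was within the range of Kdm6b-cKO on that side, whereas the downstream edge was farther out in both Kdm6b-cKO libraries. The fold over the local background, averaged over this peak by the authors' caller, was 4.36 and 3.98 in Kdm6b-cKO and 4.15 and 4.18 in WT. These averages did not separate the genotypes, but they run over peaks of unlike length and not over the same bases.

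The difference ran along the whole Eya2 gene. Of its 176.7 kb, peaks covered 79.8% in Kdm6b-cKO 3, 74.7% in Kdm6b-cKO 4, 41.7% in WT 7 and 23.7% in WT 9. Exons, at 71.2, 67.7, 36.9 and 22.2%, followed the same order as introns, at 80.0, 74.8, 41.8 and 23.7%. In Kdm6b-cKO the longest peaks lay well inside the gene, 46.1 kb long from 33.9 to 79.9 kb past the TSS in replicate 3 and 41.6 kb long from 33.1 to 74.6 kb in replicate 4. In WT the longest peak was the one over the TSS, and the body was instead broken into pieces, with 30 peaks in WT 7 and 17 in WT 9 against 13 in each Kdm6b-cKO library. The gene body was measured after these values had been seen in part. Among the 1285 genes of at least 100 kb with any covered base, the difference at Eya2, 44.6 percentage points, was exceeded by 10 genes, the median was 0.830 points, and the adjusted p of limma was 0.111. Both Kdm6b-cKO libraries lay above both WT libraries at 57.7% of these long genes, and 4.9% were called higher.

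**Figure D2:**
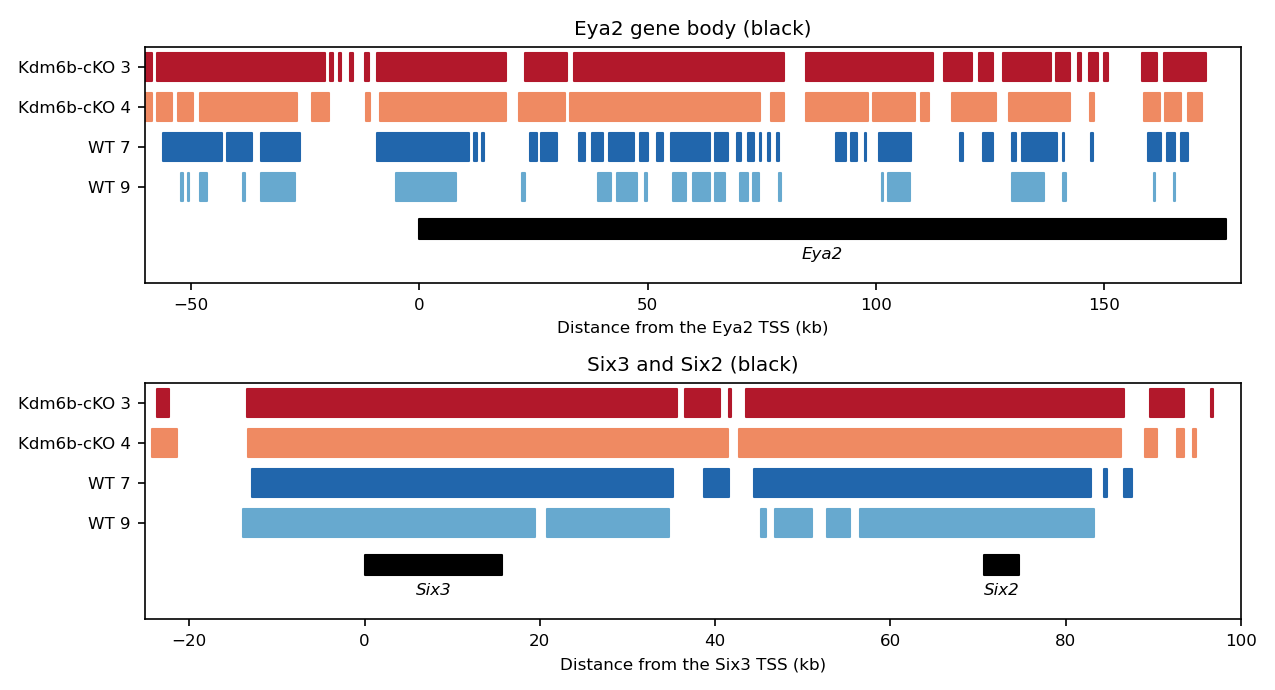
H3K27me3 broad peaks (coloured bars) in the 4 libraries along Eya2 (top) and along Six3 and Six2 (bottom), with distance from the Eya2 and the Six3 TSS in kb on the x axes and gene bodies in black. The Eya2 body is covered over 79.8 and 74.7% in Kdm6b-cKO and 41.7 and 23.7% in WT, while Six3 and Six2 are covered in all 4 libraries.

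The other Eya genes showed no such extension. Eya1, a regulator of ear and kidney formation (chr1:14168954-14310235, minus strand), was marked over 100% of its promoter in Kdm6b-cKO 3, 93.8% in Kdm6b-cKO 4, 100% in WT 7 and 73.9% in WT 9, and the genotypes overlapped. Within 25 kb it carried 19.8, 16.6, 20.7 and 16.5 kb, a difference of -0.368 ± 2.10 kb (limma adjusted p = 0.902). The mark at Eya1 was in several pieces, with 6, 4, 4 and 7 peaks in that window, and in WT 9 none of them lay over the TSS. Of its body of 141.3 kb, between 7.55 and 10.8% was covered.

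Eya4, required for hearing (chr10:23102963-23350786, minus strand), was the weakest of the marked members. Its promoter was covered over 52.3% in Kdm6b-cKO 3, 22.1% in Kdm6b-cKO 4, 16.9% in WT 7 and 11.3% in WT 9. Both Kdm6b-cKO values lay above both WT values, as at 49% of all promoters tested, but the Kdm6b-cKO replicates were farther from each other than replicate 4 was from WT, and the difference of 23.1 ± 13.6 points gave an adjusted p of 0.451 by limma. A peak over the TSS was called in both Kdm6b-cKO libraries, at lengths of 5.38 and 0.448 kb, and in neither WT library. Its averaged -log10 q was 2.84 and 2.73, at percentiles 39.5 and 38.7 of the peaks of its list, while the Eya2 peak stood at percentiles 96.2 to 97.9. How many genes had a TSS peak in both Kdm6b-cKO libraries and in neither WT library was not counted. Promoters marked in both Kdm6b-cKO libraries and in neither WT library, a related pattern, made up 14.9% of those tested. Within 25 kb Eya4 held 6.07, 2.48, 2.49 and 2.52 kb, so replicate 3 of Kdm6b-cKO alone was high (adjusted p = 0.461), and without it the difference was -0.023 kb.

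**Figure D3:**
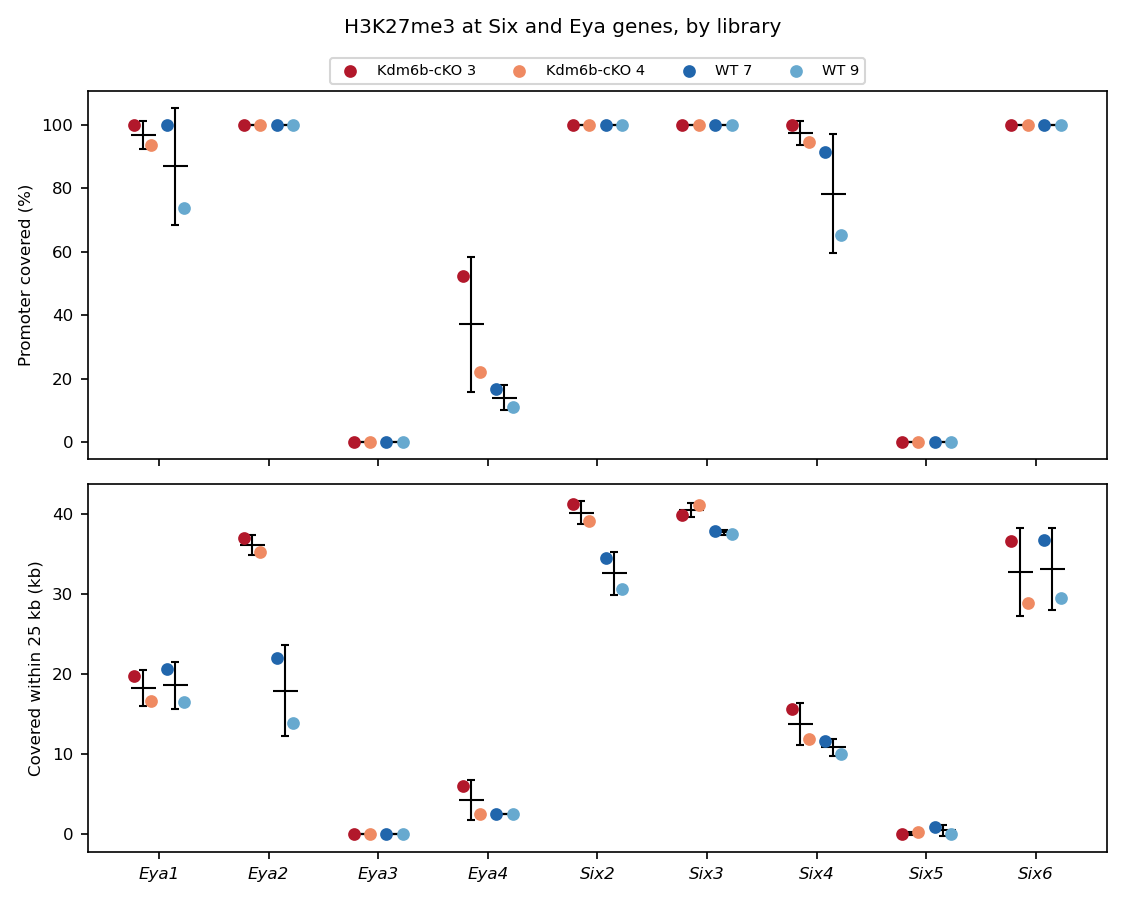
Covered share of the promoter (top, %) and covered length within 25 kb of the TSS (bottom, kb) for each Six-family and Eya gene, with points for libraries and bars for the mean ± SD of n = 2. Within 25 kb Eya2 stands at 37.0 and 35.2 kb for Kdm6b-cKO and at 22.0 and 13.9 kb for WT, and Eya3 and Six5 lie at or near 0.

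Among the Six-family genes, Six3 and Six2 shared one stretch of marked chromatin on chromosome 17. Six3 patterns the forebrain and eye (chr17:85613608-85629302, plus strand), and Six2 maintains nephron progenitors (chr17:85684277-85688274, minus strand). They point toward each other, with 74.7 kb between their TSSs. Peaks covered 95% of that interval in Kdm6b-cKO 3, 98.4% in Kdm6b-cKO 4, 91.3% in WT 7 and 78.9% in WT 9. The interval was held by 4, 2, 3 and 6 peaks in this order, and its largest gap was 1.69, 1.22, 3.61 and 10.5 kb. WT 9, the library with the shortest list, thus had the most fragmented interval. Both gene bodies were covered from end to end in every library.

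The peaks at these genes were among the longest of their lists. The peak over the Six3 TSS measured 49.0, 54.7, 48.0 and 33.3 kb in Kdm6b-cKO 3, Kdm6b-cKO 4, WT 7 and WT 9, at length percentiles between 99.7 and 99.9. The Six2 peak measured 43.1, 43.6, 38.5 and 26.7 kb. For both, WT 9 was the shortest.

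Six2 had the second widest difference among the members. It carried 41.2, 39.2, 34.4 and 30.7 kb within 25 kb of its TSS. Both Kdm6b-cKO libraries lay above both WT libraries, as at 65.3% of all windows tested. The difference was 7.61 ± 1.75 kb with an adjusted p of 0.0851 by limma. It lay upstream of Six2, away from Six3, where peaks took up 16.2 and 14.2 kb of 25 kb with Kdm6b deleted but 9.45 and 8.53 kb in controls. On the downstream side 25 kb of 25 kb was covered in all libraries but WT 9, which had 22.1 kb.

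Six3 differed by less. Its covered length within 25 kb was 39.9 kb in Kdm6b-cKO 3, 41.1 kb in Kdm6b-cKO 4, 37.9 kb in WT 7 and 37.5 kb in WT 9, a difference of 2.80 ± 0.802 kb with an adjusted p of 0.114 by limma. The genotypes did not overlap, as at 65.3% of all windows tested, and the replicates of each lay close together. A shift of 2.80 kb was close to the median over all genes tested, 2.41 kb. It fell to 0.6525 kb with the TSS of the most covered transcript, and likewise with lists of equal covered length.

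Six6, a gene of retina and pituitary (chr12:72939892-72944899, plus strand), carried a domain of similar breadth in both genotypes. Within 25 kb it had 36.7 kb in Kdm6b-cKO 3, 28.8 kb in Kdm6b-cKO 4, 36.7 kb in WT 7 and 29.5 kb in WT 9. Each Kdm6b-cKO value had a near match among the WT values, and the difference was -0.364 ± 4.10 kb (limma adjusted p = 0.951). The peak over its TSS also overlapped between genotypes, at 30.1, 20.5, 31.2 and 19.3 kb. The TSS of 4930447C04Rik lies 882 bp from that of Six6, and its promoter was likewise 100% covered in all 4 libraries.

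Six4, a muscle and sensory regulator on the same chromosome (chr12:73099609-73113456, minus strand), was marked mainly upstream. The upstream 25 kb held 9.08, 8.57, 9.11 and 9.13 kb in Kdm6b-cKO 3, Kdm6b-cKO 4, WT 7 and WT 9, nearly the same in each, whereas the downstream 25 kb held 6.57, 3.30, 2.49 and 0.911 kb. The downstream edge of the peak over the TSS moved in step, at 4.54, 2.68, 2.49 and 0.911 kb. The promoter was covered over 100, 94.7, 91.6 and 65.2%, and the window within 25 kb over 15.6, 11.9, 11.6 and 10.0 kb. Kdm6b-cKO lay above WT in both measures, as at 49% of promoters and 65.3% of windows tested, but Kdm6b-cKO 4 and WT 7 were close. Neither the 18.97 ± 11.9 points (adjusted p = 0.480) nor the 2.94 ± 1.68 kb (adjusted p = 0.307) passed by limma. The promoter of Mnat1, whose TSS lies 10261 bp upstream, was covered over 30.3, 21.8, 30.8 and 31.2% by the upstream end of this same peak.

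Six-family proteins bind the MEF3 element, TCAGGTTTC, and the first 250 bases of the RefSeq promoter sequences (GRCm38.p6) were searched for it on both strands. It was found in 127 of 32851 sequences (0.387%). Of the 7 members with a sequence in that table, Six4 alone had a match, at chr12:73113336-73113344, 112 bases past the GENCODE TSS used here, since the RefSeq start lies farther into the gene, and within the 5′ UTR of an annotated Six4 transcript. It is shown with its flanks on the strand of the gene, the match in capitals (the reverse complement of the element).
Six4: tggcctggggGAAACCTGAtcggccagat
This position lay inside the peak over the Six4 TSS in every library. The match is a description of the letters and no evidence of binding.

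Across the members, no promoter was called at an adjusted p under 0.05 by limma, against 7.93% of all tested promoters called higher and 0.096% called lower. None passed at an unadjusted p under 0.05 either, a level that 25.6% of promoters passed upward and 0.704% downward. Promoters of Eya4 and Six4 had both Kdm6b-cKO libraries above both WT libraries, 2 of 7, against 49% of all tested promoters, and none had both below, against 2.42%. The median difference over the 7 promoters was 0 points, against 11.7 points over all tested promoters, and 4 of the 7 had no room to rise.

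Within 25 kb, none of the 8 tested members was called, against 7.69% of all windows called higher and 0% called lower. At an unadjusted p under 0.05, Eya2, Six2 and Six3 were higher, 3 of 8, against 33.8% of all windows, and none was lower, against 0.144%. Eya2, Six2, Six3 and Six4 had both Kdm6b-cKO libraries above both WT libraries, 4 of 8, against 65.3%. The median difference over the 8 members was 2.29 kb and that over all windows 2.41 kb. As a list, then, the members were close to the background of these libraries, with Eya2 at percentile 97.5 of all differences, Six2 at 83.1, Six4 at 55.8, Six3 at 54.4 and Eya4 at 41.5. Six5, Six6 and Eya1 stood at percentiles 6.05, 5.72 and 5.68, that is, most genes had gained more covered length than they had. Six5 reached the minimum covered length for testing only through its peak of 0.926 kb in WT 7. Kdm6b-cKO 4 had 0.256 kb there and the remaining libraries had none. Entry through a WT library alone favours a difference below 0, so the percentile of Six5 cannot show a lack of gain. Six5 is nevertheless counted among the 8 members in the shares and the median above.

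**Figure D4:**
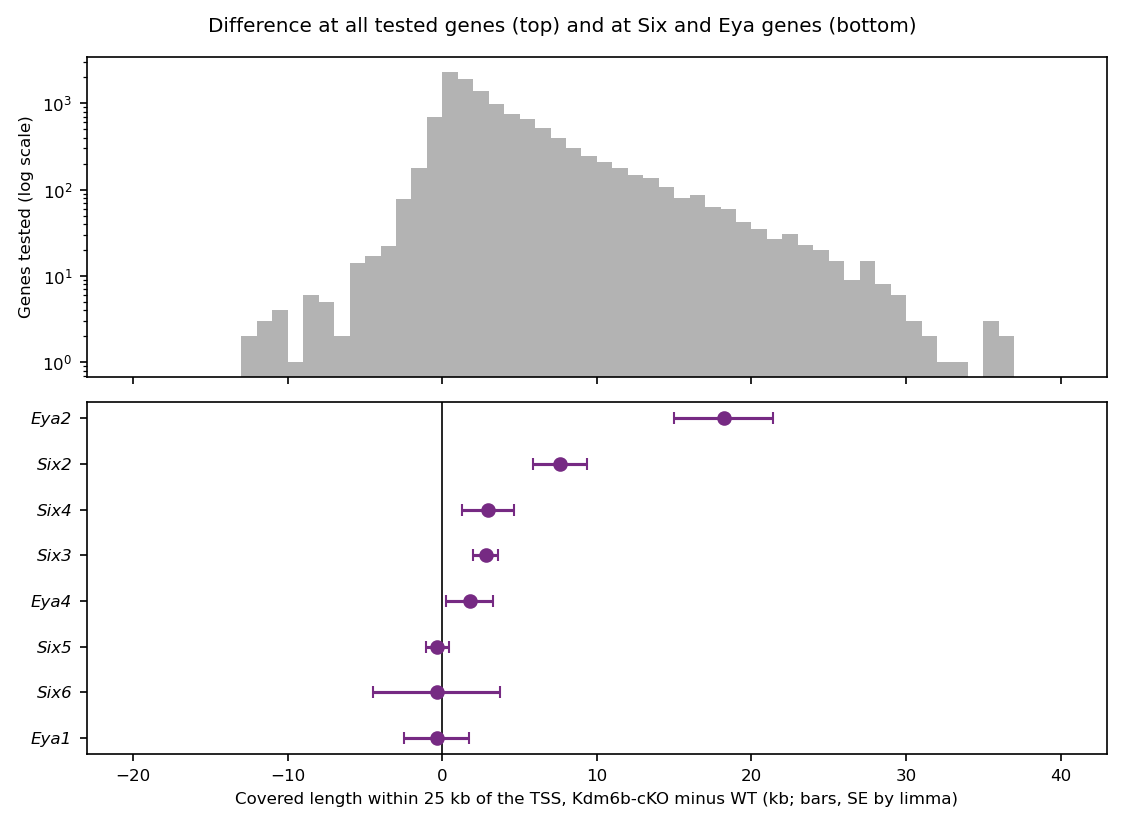
Difference in covered length within 25 kb of the TSS (kb, Kdm6b-cKO minus WT) for the 11829 tested genes (top, number of genes on a log scale) and for the 8 tested Six-family and Eya genes (bottom, bars are the SE by limma). Eya2 lies far to the right at 18.2 kb, and Eya1, Six5 and Six6 lie slightly below 0.

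Because the Kdm6b-cKO lists are longer, the differences were recomputed with lists of equal number or equal covered length, with a stricter q and with centring. Equal covered length kept 5183 peaks in Kdm6b-cKO 3, 6975 in Kdm6b-cKO 4, 9588 in WT 7 and all 22597 in WT 9. The stricter q kept 4494, 3955, 2532 and 1785 in the same order, so these lists were unequal in number. With the 22597 strongest peaks of each library, Eya2 kept a difference of 17.6 kb (adjusted p = 0.0649), and with the strongest peaks up to an equal covered length it kept 14.5 kb (adjusted p = 0.0913). With a −log10 q of at least 5 it kept 13.3 kb (limma adjusted p = 0.136). After centring on each library's mean the difference was 14.1 kb with an adjusted p of 7.67e-05 by limma, which passed the threshold. Centring called 1430 of the 11829 windows higher and 407 lower, against 910 and 0 with the lists as deposited. Centring counts each difference from the mean difference over all tested windows, so a value below 0 can be a rise smaller than that mean. Under the same centring Six2 kept 3.55 kb (limma adjusted p = 0.115), while Six3 and Six4 turned to -1.25 and -1.12 kb. Eya4 turned to -2.35 kb with equal peak number, since the weak peaks of Kdm6b-cKO at this gene then left the lists.

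**Figure D5:**
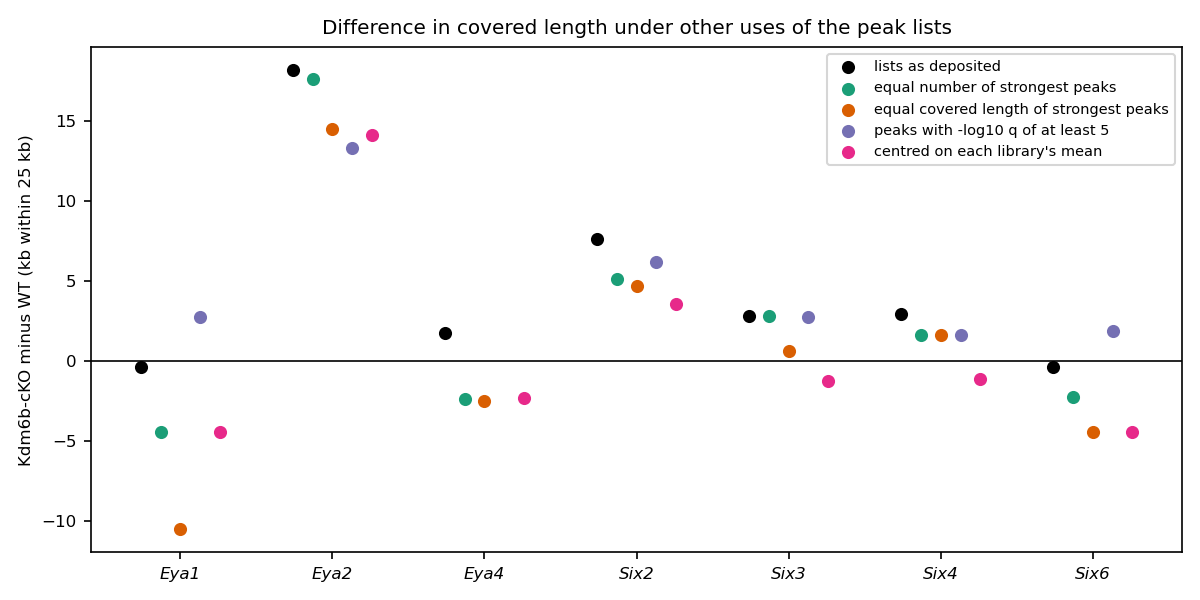
Difference in covered length within 25 kb (kb, Kdm6b-cKO minus WT) for the 7 members with a marked promoter, with the lists as deposited and under 4 other uses of them. Eya2 stays between 13.3 and 18.2 kb and Six2 stays above 0, whereas Eya4 falls below 0 in 3 of the 4 and has no value with the stricter q.

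Genes whose covered lengths came closest to those of Eya2 were found by Euclidean distance over the 4 libraries. They were Dusp9 at a distance of 1.83 kb, Ascl2 at 2.08 kb, Cnksr1 at 2.304 kb and Adgrb2 at 2.77 kb. Dusp9, for example, had 36.6, 33.6, 22.7 and 13.9 kb within 25 kb of its TSS in Kdm6b-cKO 3, Kdm6b-cKO 4, WT 7 and WT 9.

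The wider network was read from a list of 24 genes: Pax and Dach factors, the cofactor Sobp, Tle corepressors, and genes known as targets or partners of Six-family and Eya proteins. Of these, 20 had a promoter to test and 15 were marked in all 4 libraries, against 52.7% of all tested promoters. The promoters of Pax1, Pax2, Pax3, Pax6, Pax7, Pax9, Sall1, Wnt8b and Shh were fully covered in every library, 9 of 20, against 10.2% of all tested promoters. Dach1, the cofactor that partners both families, was covered over 37.4, 56.9, 46.3 and 35.3% of its promoter, and Dach2 and Tle2 carried no peak within 25 kb.

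In the network list 2 of 20 promoters were called higher, against 7.93% of all tested promoters, and 2 of 22 windows within 25 kb, against 7.69%. Its median differences were 0.133 points and 2.22 kb, against 11.7 points and 2.41 kb over all. The called genes were Myog, Myod1 and Wnt8b, a brain-expressed Wnt ligand. On simulated data more limma calls were false than the nominal rate, so calls near the threshold are uncertain. Myog, the differentiation factor of skeletal muscle and a target of Six-family proteins, had a promoter without any peak in WT, whereas 15.4% of it was covered in Kdm6b-cKO 3 and 18.4% in Kdm6b-cKO 4 (limma adjusted p = 0.0437). Myod1, which commits cells to the muscle lineage, had 100 and 100% against 85.7 and 84.2% (adjusted p = 0.0298). Within 25 kb, Myod1 rose from 17.8 and 17.7 kb in WT to 36.9 and 34.3 kb in Kdm6b-cKO, a difference of 17.8 ± 1.18 kb (adjusted p = 0.029), nearly the size of that at Eya2 but with an SD in WT of 0.021 kb against 5.68 kb. Wnt8b rose from 35.7 and 33.5 kb to 43.8 and 42.9 kb (limma adjusted p = 0.0435). Myog was not called at this width. It held 17.5 and 17.9 kb in Kdm6b-cKO against 15.5 kb in WT 7 and 6.3 kb in WT 9 (limma adjusted p = 0.275). Centring on each library's mean counts each difference from the mean difference over all tested promoters. Both promoter calls were lost by it, at -0.307 and -2.12 points, so both rises were below that mean. That of Myog was lost without WT 7 (adjusted p = 0.154) or WT 9 (0.216), and that of Myod1 without any one library (0.0544 to 0.0924). Within 25 kb, both calls were lost without Kdm6b-cKO 3, Kdm6b-cKO 4 or WT 9, with adjusted p of 0.0984 to 0.137 for Myod1 and 0.128 to 0.209 for Wnt8b.

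No gene of the network was called lower. The promoters of Myf5 and Gdnf, like that of Myog, were marked in both Kdm6b-cKO libraries and in neither WT library, a pattern of 14.9% of tested promoters and of none of the Six-family and Eya genes. Myf5, the early myogenic factor, had 12.4 and 19.7% covered (adjusted p = 0.128), and Gdnf, the kidney growth factor under the control of both families, had 23.1 and 70.1% (adjusted p = 0.334). Within 25 kb, 15 of 22 tested genes had both Kdm6b-cKO libraries above both WT libraries, a pattern of 65.3% of all windows. Pax3, Pax9 and Tle1 had both below, a pattern of 1.67% of all windows. Pax9, for example, carried 30.1, 26.3, 35.1 and 31.7 kb (difference -5.20 ± 2.04 kb, adjusted p = 0.182).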

How the data were processed

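H3K27me3 ChIP-seq was analysed from 4 deposited peak lists. Per the submitters' processing notes, reads on mm10 went through bcl2fastq, deepTools 3.5.1, SAMtools 1.9, Bowtie2 2.3.5.1 and MACS2 2.2.7.1, named here in no order. The authors subsampled libraries to a like depth and called broad peaks in each library on its own, without pooling. How the input entered the calling is not given in the sources used here, and the input library was not used. Each deposited row gives −log10 values of p and q, the fold ratio of signal over local background and a display score, all averaged over the peak by the authors' caller. These ranked, filtered or described peaks only. The lists hold no read counts, so no count model was fitted and no counting interval is given.

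Peaks on 19 autosomes and the X chromosome were merged per library and intersected with TSS windows of GENCODE M21, with an overlap of at least 1 bp. The 7 to 12 peaks per list elsewhere were left out. Covered share and covered length were fitted over all genes with at least 500 bp covered in at least 1 library, with limma 3.58.1 (lmFit, eBayes, Benjamini-Hochberg) in R 4.3.3, and the step was tested on simulated data, where more of its calls were false than the nominal rate. Python 3.11.15, numpy 2.4.6, pandas 2.3.3 and matplotlib 3.10.9 were used. Members, lists and tests were chosen with earlier results of these data known, and the gene body measure was added after these values were seen. Named genes were all members, the 24 network genes, genes with a TSS within 25 kb of a member's TSS, and the 4 genes nearest to Eya2 in profile, outside these lists and windows. Alternatives were lists of equal number or equal covered length, a −log10 q of at least 5, centring, other filters, windows and TSS choices, a trended robust fit, and each library left out.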

Additional observations from a re-analysis of the deposited data

How the results depend on the processing

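No paired analysis was possible because the genotypes share no replicate number. Members had 212 alternative values. Of the 156 whose difference was not 0 to begin with, 131 did not reverse and did not pass, 21 reversed and 4 came to pass. The 131 include Six3 in the 10 kb window, where the difference fell to 0. Of the 21, 4 came with centring, where a value below 0 can be a rise smaller than the mean over all tested features. The other 56 belong to the fully covered promoters of Eya2, Six2, Six3 and Six6, which stayed at 0 in 52 and moved to -17.2 points with centring in 4 (adjusted p = 0.18). Eya2 within 25 kb kept its direction throughout, from 2.75 kb in the 10 kb window to 38.6 kb in the 50 kb window, and passed with centring (14.1 kb, adjusted p = 7.67e-05), with the trended robust fit (18.2 kb, 0.0341) and without WT 7 (22.2 kb, 0.0329). Its gene body passed with centring (40.6 points, 0.000162). The gene body difference ran from 35.55 points (without WT 9) to 53.59 points (without WT 7) with a library left out, and did not pass. Within 25 kb, leaving out the other libraries gave 14.18 kb (without WT 9), 17.3 kb (without Kdm6b-cKO 3) and 19.09 kb (without Kdm6b-cKO 4). These did not pass either.

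Reversals at promoters were Eya4 at -14.1 points with equal number and with equal length, and Eya1 at -36.9 (equal length), -7.24 (centred), -3.47 points (5 kb), and with a library left out it ran from -3.12 (without WT 9) to 23.0 points. Within 25 kb, Eya4 reversed to -2.35 (equal number), -2.50 (equal length), -2.29 kb (centred) and ran from -0.023 (without Kdm6b-cKO 3) to 3.56 kb with a library left out, while Six3 reversed to -1.25 and Six4 to -1.12 kb (centred), and Six5 to 1.02 kb (50 kb). Eya1 reversed to 2.74 and 2.62 kb, and Six6 to 1.88 and 0.814 kb, with a −log10 q of at least 5 and the 50 kb window. With a library left out, Eya1 ran from -2.47 to 1.73 kb and Six6 from -4.29 to 3.56 kb, both above 0 without Kdm6b-cKO 4 and without WT 7. The cause was not tested. Eya4 and Six5 had no value with the stricter q, nor had Six5 with the 1000 bp minimum, the 10 kb window or without WT 7.

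Counts over all genes moved more, and the number of features tested changed as well. With the stricter q, 615 of 3199 promoters were called higher and 4 lower, against 496 and 6 of 6251 as deposited. For windows it was 922 and 4 of 5533, against 910 and 0 of 11829. With no filter, 21728 were tested in each measure. Promoters called higher and lower, 496 and 6, became 353 and 16 with equal number, 133 and 78 with equal length, 493 and 58 when centred, 151 and 1 with no filter, 380 and 1 at 5 kb, and 568 and 10 with the most covered TSS. Leaving out a library gave 0 to 1355 higher and 0 to 62 lower, 0 being without WT 9, where 1096 and 153 had an unadjusted p under 0.05. Windows of 25 kb, 910 and 0, became 354 and 1 with equal number, 68 and 39 with equal length, 922 and 4 with the stricter q, 1430 and 407 when centred, 178 and 3 with no filter, 404 and 1 at 10 kb, and 2242 and 2 with the trended robust fit. Leaving out a library gave 0 to 1539 higher, with 0 without any one of Kdm6b-cKO 3, Kdm6b-cKO 4 and WT 9, where 2793, 3622 and 2457 had an unadjusted p under 0.05, and 0 lower.

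Network promoters called higher, 2, became 1 with equal length, when centred and at 5 kb, and 0 with the stricter q, no filter and 1 kb. When centred, Sobp was called in place of Myog and Myod1, whose centred differences were -0.307 and -2.12 points. Leaving out a library gave 0 to 4 higher and 0 to 1 lower. Network windows called higher, 2, became 1 with equal length, at 10 kb and with the trended robust fit, 0 with no filter, and 0 to 3 with a library left out. When centred, 3 network windows, Pax3, Pax9 and Tle1, were called lower.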
